A study of Homo sapiens with 36 samples.

Results

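The mitochondrial genome is a small circular DNA, kept apart from the chromosomes of the nucleus, and its 37 genes were taken here as every gene whose symbol begins with MT- out of the 58721 genes counted. They are 13 protein genes, 2 ribosomal RNA (rRNA) genes and 22 transfer RNA (tRNA) genes. The 13 proteins are core subunits of oxidative phosphorylation: MT-ND1 to MT-ND6 and MT-ND4L belong to complex I (NADH dehydrogenase), MT-CYB to complex III (cytochrome bc1), MT-CO1 to MT-CO3 to complex IV (cytochrome c oxidase), and MT-ATP6 and MT-ATP8 to the ATP synthase. Complex II has no subunit from this genome. Both strands are transcribed into long precursor RNAs by the polymerase POLRMT, and tRNA genes lie between most of the others and are cut out to release them. Cardiomyocytes are rich in mitochondria, whereas undifferentiated stem cells draw more on glycolysis.

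The cells were H1 human embryonic stem cells (hESCs), an established line, either wild type or labelled PERK KO, that is, knocked out for PERK, the endoplasmic reticulum stress kinase encoded by EIF2AK3. Both genotypes were grown in E8 medium and then driven toward cardiomyocytes with the WNT activator CHIR99021, followed by the WNT inhibitor IWP2, with heparin from day 1 and insulin from day 7. RNA was taken at days 0, 1, 2, 3, 5 and 10, with 3 replicates of each genotype at each day (12 groups, 36 libraries). The labels do not say how PERK was removed, whether the knockout is 1 clone, or whether replicates are separate cultures, so p-values measure only the spread between these samples.

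The libraries held 14002137 to 25860481 counts. EIF2AK3 itself was counted at 9.88 to 29.6 CPM (a gene's counts scaled to a library of 1000000 counts) in wild type and 9.31 to 26.1 CPM in PERK KO, and its log2 fold changes between genotypes, from -0.37 to 0.45, did not pass the edgeR test at any day (lowest adjusted p = 0.127). Such a count over the whole gene does not check a knockout whose edit is not described. PERK KO day 0 replicate 2 stood apart, with a count-weighted nuclear transcript length of 2079 nt against 2951 and 2898 nt in its group. Wild-type day 2 replicate 3 was also set apart, at 2755 nt against 3026 and 2974 nt, a smaller gap. No cut-off is given for this choice, and wild-type day 3 replicate 3, at 2873 nt against 3156 and 3023 nt, was kept. Wild-type day 0 replicate 1 differed from its group in mitochondrial content, at 5.20% of all counts against 7.54% and 8.54%. Counts of called genes at day 0 are given with and without the first pair of these libraries.

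Of the 37 genes, 15 had counts: the 13 protein genes and both rRNA genes, MT-RNR1 (12S) and MT-RNR2 (16S). The 22 tRNA genes, 59 to 75 nt long, were listed at 0 in all 36 libraries with an effective length of 0 nt. The effective length is the number of positions at which a sequenced fragment of the library's size can start within a gene. Mean fragments were 267 to 320 nt long here, longer than any tRNA gene, and the zeros are not read as tRNA levels. The shortest and the longest of them are printed to show how they compare with such fragments, from GRCh38 with the GENCODE 29 annotation, 5′ to 3′ on the plus strand, MT-TS2 at chrM:12207-12265 and MT-TL1 at chrM:3230-3304.
MT-TS2: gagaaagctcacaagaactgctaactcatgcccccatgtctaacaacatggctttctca
MT-TL1: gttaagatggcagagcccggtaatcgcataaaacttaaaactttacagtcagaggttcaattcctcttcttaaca

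Of the 13 protein genes, 12 lie on the plus strand and 6 have no whole stop codon in the DNA, the codon being completed by the added poly(A) tail. MT-ND6 alone lies on the minus strand. Whether strand was used in counting is not given in the sources used here, so MT-ND6 counts cannot be told apart from reads of precursor RNA of the opposite strand. A pair of mRNAs carries 2 reading frames each, MT-ATP8 with MT-ATP6 and MT-ND4L with MT-ND4. These frames overlap by 46 and 7 bases, printed in capitals below because reads across them fit both genes. MT-ATP8 is whole (chrM:8366-8572, 207 nt, the shortest protein gene), followed by the start of MT-ATP6 (chrM:8527-8616), the end of MT-ND4L (chrM:10707-10766) and the start of MT-ND4 (chrM:10760-10819), all plus strand, GRCh38.
MT-ATP8: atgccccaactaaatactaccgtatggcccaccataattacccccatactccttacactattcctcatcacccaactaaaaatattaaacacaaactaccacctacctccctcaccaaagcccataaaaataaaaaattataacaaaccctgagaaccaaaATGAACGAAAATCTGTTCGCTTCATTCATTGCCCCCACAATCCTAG
MT-ATP6: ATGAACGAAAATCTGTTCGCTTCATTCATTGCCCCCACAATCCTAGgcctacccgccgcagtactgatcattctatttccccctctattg
MT-ND4L: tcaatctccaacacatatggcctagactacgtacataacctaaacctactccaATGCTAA
MT-ND4: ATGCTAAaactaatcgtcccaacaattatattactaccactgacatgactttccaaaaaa

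The mitochondrial genes took a share of 2.81% to 8.54% of all counts in a library. In wild type the share averaged 7.09% ± 1.71 at day 0 (SD, n = 3 here and for all means) and lay between 4.66% ± 0.242 (day 3) and 5.43% ± 0.138 (day 1) afterwards, with 5.36% ± 0.457 at day 10. In PERK KO it began at 6.50% ± 0.421, held 4.99% ± 0.131, 5.36% ± 0.0195, 5.59% ± 0.245 and 5.17% ± 0.0410 on days 1, 2, 3 and 5, and ended at 2.90% ± 0.0896. The genotypes did not overlap at day 1 (PERK KO lower), days 2 and 3 (higher) and day 10 (lower), and overlapped at days 0 and 5. At each of the days without overlap the exact permutation test gave p = 0.1, the smallest that 3 against 3 libraries allow (adjusted over 6 days 0.15). The difference at day 10 was -2.46 percentage points. As a share of the deposited TPM (a length-corrected share of transcripts) the difference turned at day 0 from -0.59 to 3.26 points and at day 2 from 0.47 to -0.198, both with overlap, and at day 5 from -0.0366 to 0.723, also with overlap. At day 0 MT-ATP8 alone averaged 64900 TPM in PERK KO and 2742 TPM in wild type, at an effective length of at most 3.12 nt. The TPM share without it was not computed. In counts at day 2, the 13 protein genes alone differed by 0.0513 points and overlapped, the rest being rRNA. In bulk RNA, a change in cell types and a change in mitochondrial RNA per cell cannot be told apart.

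**Figure D1:**
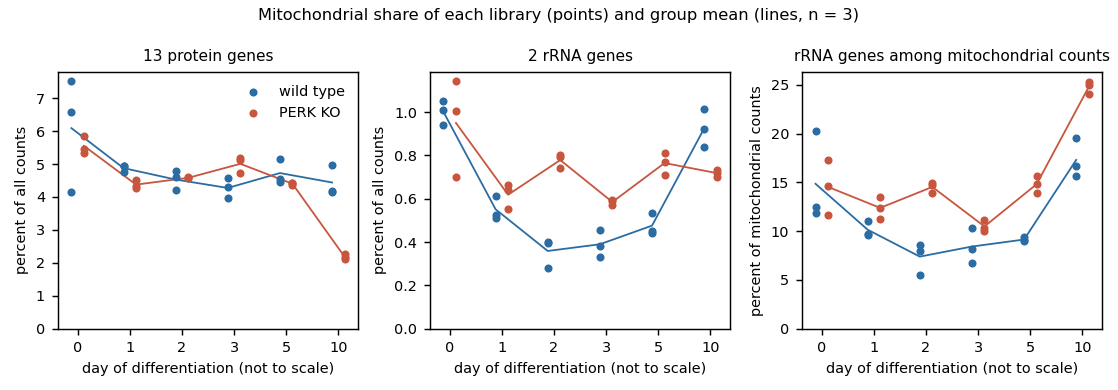
Percent of all counts in the 13 mitochondrial protein genes (left) and in the 2 rRNA genes (middle), and the rRNA percent of mitochondrial counts (right), by day; points are libraries and lines join group means (n = 3). The PERK KO libraries at day 10 sit at 2.11% to 2.27% in protein genes, below the 4.16% to 4.96% of wild type, while their rRNA share of mitochondrial counts reaches 24.0% to 25.3%.

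At day 10 PERK KO had lower levels of all 15 mitochondrial genes with counts, with log2 fold changes from -1.67 (MT-ATP6) to -0.56 (MT-RNR2) and a median of -1.40. All passed the test (edgeR quasi-likelihood F test, Benjamini-Hochberg adjusted p under 0.05 over 19772 genes), where 67.3% of all genes passed, 33.3% higher and 34.0% lower. The median over all genes was 0.00. The count stayed at 15 in each of the 36 fits that left out 1 library. Most of these fits left out a library of another day and kept all libraries of day 10. Log2 fold changes here are scaled by TMM, which centres a trimmed mean of the genes between libraries. With library totals and no scaling factor, an alternative chosen after seeing the data, the median of all genes at day 10 was 0.28, the split of all calls went from 6575 higher and 6726 lower to 7954 and 5346, and 14 of the 15 genes were lower, MT-RNR2 standing at -0.27 (adjusted p = 0.145).

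The complex I genes all fell at day 10, led by MT-ND4 at -1.58 ± 0.169 (log2 fold change ± approximate SE, adjusted p = 1.93e-09), a proton-pumping subunit. In wild type the level of MT-ND4 was 5799, 10500 and 12090 on day 0, 5771, 5769 and 5523 on day 1, 4399, 5054 and 5189 on day 2, 3937, 4017 and 3959 on day 3, 3795, 3458 and 3454 on day 5 and 3806, 4323 and 4608 on day 10, in CPM for replicates 1, 2 and 3. In PERK KO the level was 6353, 4001 and 6927 on day 0, 4864, 4703 and 4601 on day 1, 4716, 4659 and 4425 on day 2, 4803, 5228 and 5239 on day 3, 4393, 4416 and 4451 on day 5 and 1739, 1715 and 1798 on day 10, in CPM. At day 10 the PERK KO libraries were all below the wild-type ones, and at day 0 wild-type replicate 1 lay among PERK KO. The other 6 complex I genes had log2 fold changes of -1.15 (MT-ND4L) to -1.50 (MT-ND6), with MT-ND3 at -1.49, MT-ND2 at -1.45, MT-ND1 at -1.34 and MT-ND5 at -1.18. In wild type and PERK KO at day 10, MT-ND1 averaged 2498 ± 663 and 1212 ± 99.0 CPM and MT-ND2 2784 ± 561 and 1256 ± 93.2 CPM. MT-ND5 averaged 2653 ± 519 and 1438 ± 37.9 CPM, and MT-ND6 453 ± 102 and 197 ± 12.7 CPM. The shorter MT-ND3 and MT-ND4L averaged 457 ± 72.6 and 200 ± 19.9 CPM and 265 ± 8.34 and 146 ± 5.17 CPM.

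MT-CYB, the only mitochondrial subunit of complex III, fell by 1.45 ± 0.171 on the log2 scale at day 10 (edgeR adjusted p = 1.27e-08). Wild-type cells had 2027, 3638 and 4314 on day 0, 2541, 2621 and 2553 on day 1, 1836, 1961 and 1854 on day 2, 1963, 1878 and 2071 on day 3, 2260, 1820 and 1848 on day 5 and 1378, 1260 and 1693 on day 10, in CPM of MT-CYB. The knockout had 2256, 1690 and 2517 on day 0, 2384, 2344 and 2266 on day 1, 1935, 1979 and 1914 on day 2, 1815, 1906 and 1824 on day 3, 2000, 2065 and 2125 on day 5 and 682, 598 and 671 on day 10, in CPM. The genotypes did not overlap at days 1 and 10, PERK KO being lower at both, and overlapped at days 0, 2, 3 and 5.

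Of complex IV, MT-CO3 fell by 1.40 ± 0.128 at day 10 (edgeR adjusted p = 6.35e-11), MT-CO1 by 1.24 ± 0.171 (adjusted p = 2.37e-07) and MT-CO2 by 1.11 ± 0.153 (adjusted p = 2.25e-07), on the log2 scale. MT-CO1 and MT-CO2 form the catalytic centre of the enzyme. By library, MT-CO3 was counted at 4592, 6630 and 7519 on day 0, 6922, 6917 and 6608 on day 1, 6087, 6502 and 6043 on day 2, 5316, 5580 and 5608 on day 3, 5712, 5315 and 6032 on day 5 and 5010, 4874 and 4851 on day 10 in wild type, in CPM. For PERK KO the values were 6013, 5056 and 6111 on day 0, 6120, 5133 and 6059 on day 1, 6701, 6627 and 6638 on day 2, 6617, 7438 and 7396 on day 3, 6365, 5981 and 5796 on day 5 and 2416, 2164 and 2233 on day 10, in CPM. MT-CO3 in PERK KO was thus above every wild-type library at days 2 and 3 and below all of them at days 1 and 10.

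In wild type the level of MT-CO2 was 5892, 8437 and 9526 on day 0, 6376, 6094 and 6109 on day 1, 4324, 5155 and 5147 on day 2, 4052, 4403 and 4405 on day 3, 4952, 4058 and 4290 on day 5 and 2496, 2607 and 2982 on day 10, in CPM for replicates 1, 2 and 3. In PERK KO the level was 6710, 7077 and 7478 on day 0, 5986, 6075 and 5282 on day 1, 5871, 5800 and 5783 on day 2, 5472, 5746 and 5497 on day 3, 4933, 5336 and 5041 on day 5 and 1675, 1441 and 1496 on day 10, in CPM. MT-CO2 was lower in both genotypes at day 10 than at any earlier day, and lower again in PERK KO. The level of MT-CO1, the most counted of the 13, was 18500, 19190 and 21710 CPM in wild type at day 10 and 10750, 10180 and 9999 CPM in PERK KO.

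MT-ATP6, the subunit that forms the proton channel of the ATP synthase, fell by 1.67 ± 0.181 on the log2 scale at day 10 (edgeR adjusted p = 2.33e-09), and MT-ATP8 by 1.49 ± 0.199 (adjusted p = 1.23e-07). Wild-type cells had 3755, 6359 and 7350 on day 0, 3622, 3421 and 3357 on day 1, 2743, 2944 and 3541 on day 2, 2224, 2453 and 2741 on day 3, 2523, 2188 and 2165 on day 5 and 1881, 2044 and 2457 on day 10, in CPM of MT-ATP6. The knockout had 3691, 3677 and 4099 on day 0, 3162, 3258 and 2990 on day 1, 2830, 2893 and 2706 on day 2, 2904, 3111 and 3050 on day 3, 2419, 2594 and 2500 on day 5 and 837, 792 and 838 on day 10, in CPM. The PERK KO libraries of day 10, at 792 to 838 CPM, lay under every other library of the series.

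**Figure D2:**
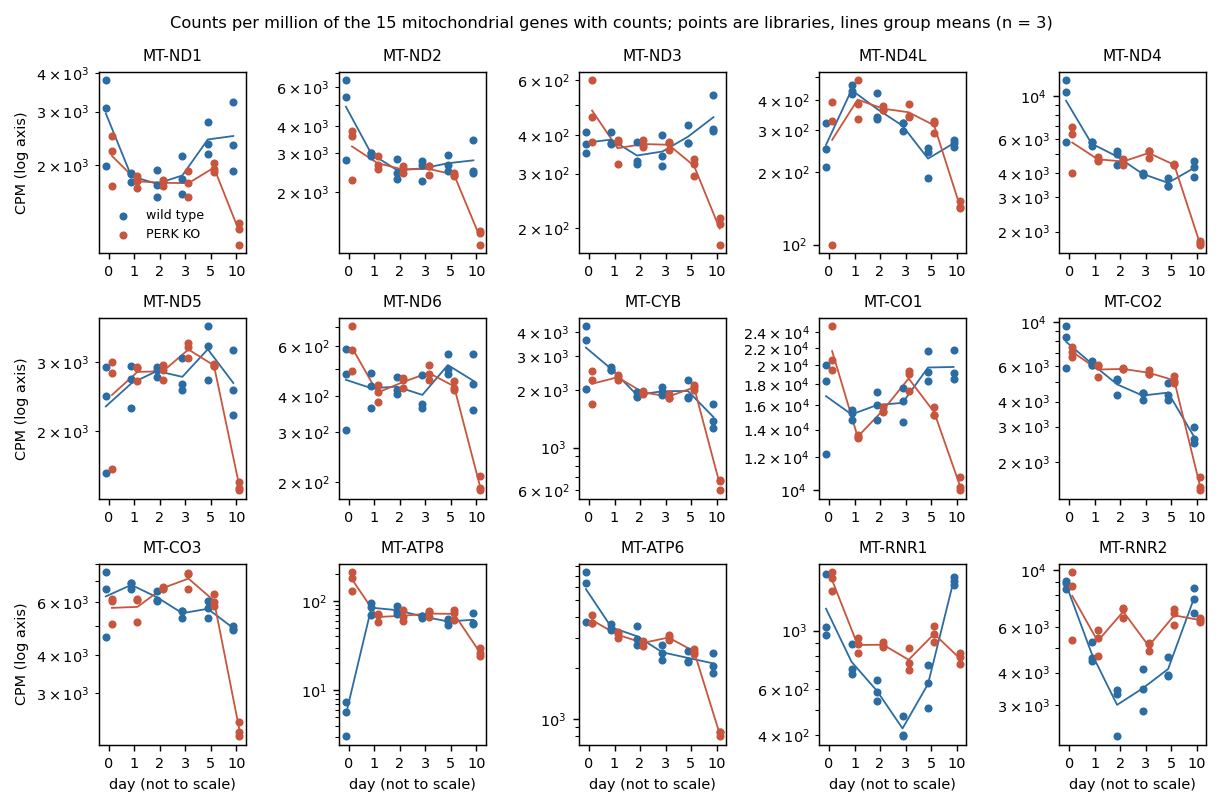
CPM (log axis) of each of the 15 mitochondrial genes with counts, by day and genotype; points are libraries and lines group means (n = 3). The PERK KO points at day 10 lie below wild type in all 15 panels, and the wild-type points of MT-ATP8 at day 0 lie at 3.04 to 7.32 CPM, far under the rest.

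The nuclear genes for the same complexes stood beside them at day 10: of those tested, lower and higher were 30 and 2 of 37 for complex I (median log2 -0.90), 3 and 0 of 4 for complex II (-1.05), 7 and 0 of 9 for complex III (-1.33), 12 and 1 of 15 for complex IV (-1.27) and 15 and 0 of 17 for the ATP synthase (-1.18). Among them were NDUFV1 at -2.18, SDHA at -3.02, CYC1 at -2.01, ATP5MC1 at -2.82 and the heart and muscle isoforms COX6A2 at -6.11 and COX7A1 at -6.58, all called by edgeR. At day 10, 33.3% of all genes were higher and 34.0% lower. At day 0 the nuclear counts changed without both libraries that stood apart, an alternative added after seeing the data: complex I went from 15 higher and 0 lower of 37 to 4 and 8, complex II from 2 and 0 of 4 to 1 and 0, complex III from 5 and 0 of 9 to 3 and 0, complex IV from 6 and 0 of 15 to 2 and 1, and the ATP synthase from 9 and 0 of 17 to 4 and 4. Over all genes 12.5% were higher and 8.64% lower at day 0, and 13.2% and 12.3% without them.

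**Figure D3:**
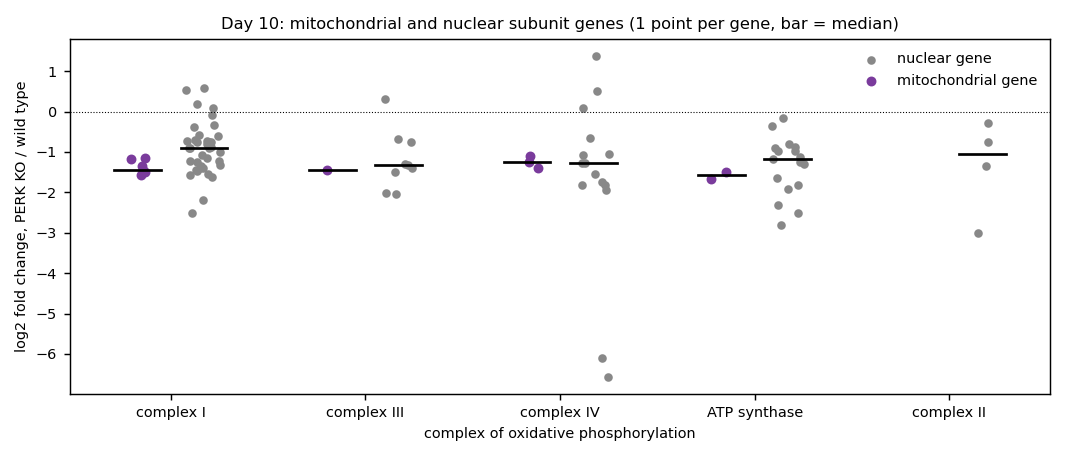
Log2 fold change of PERK KO against wild type at day 10 for mitochondrial (purple) and nuclear (grey) subunit genes by complex; each point is a gene and each bar the median of its genes. All 13 mitochondrial points lie between -1.67 and -1.11, while nuclear genes spread from -6.58 to 1.39.

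Lists of genes that act on mitochondrial DNA and RNA held calls in both directions at day 10, as did all genes (33.3% higher, 34.0% lower). Of the 11 genes for its transcription, 6 were higher and 3 lower (median 0.28): the polymerase POLRMT fell from 190.9 ± 25.0 to 106 ± 3.16 CPM (log2 -1.14), whereas MTERF1 and MTERF3, of the mitochondrial termination factor family, rose by 2.62 and 1.69. Of 14 genes for replication and packaging, 11 were higher and 2 lower (0.57), with DNA2 at 2.63 and the DNA polymerase POLG at -0.72. RNA processing genes were 8 higher and 7 lower of 18 tested (-0.12), a split close to that of all genes, with TRMT10C, a subunit of the mitochondrial RNase P, at 2.53 and TRMU, a tRNA thiolase, at -1.05. Genes of RNA stability and decay were 9 higher and 4 lower of 18 (0.44), with FASTKD3 at 1.55 and GRSF1, an RNA-binding protein of mitochondrial RNA granules, at -0.88. Of 10 regulators of mitochondrial biogenesis 6 were lower and 2 higher (-0.50). The coactivators PPARGC1A (95.8 ± 46.9 to 2.72 ± 1.10 CPM, log2 -5.40) and PPARGC1B (-3.56) and the receptor ESRRA (-2.67) fell, all by edgeR.

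Cell type markers moved with the genotype at day 10, where 67.3% of all genes were called, 33.3% higher and 34.0% lower. The summed level of 8 cardiac markers was 13450 to 15480 CPM in wild type and 165 to 604 CPM in PERK KO, with 8 of 8 lower. The 8 neural markers summed to 34.5 to 39.3 CPM in wild type and 876 to 1031 CPM in PERK KO (8 of 8 higher), and the 8 pluripotency markers to 532 to 690 and 2282 to 2306 CPM (5 higher, 2 lower). The 6 endoderm markers summed to 1323 to 1875 and 344 to 598 CPM (5 lower, 1 higher), and the 8 fibroblast and endothelial markers to 3610 to 4926 and 225 to 341 CPM (6 lower of 7 tested). No marker of these lists was at 0 in every library of either group at day 10 except 1 neural marker in wild type. The part of cell type in the mitochondrial levels was not tested.

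At day 0 the genotypes differed in 6 of the 15 genes, 4 higher and 2 lower in PERK KO (all genes: 21.1% called, 12.5% higher and 8.64% lower). MT-ATP8 was higher by 5.15 ± 0.237 on the log2 scale (edgeR adjusted p = 1.16e-15), MT-CO1 by 0.53, MT-ND3 by 0.53 and MT-RNR1 by 0.52, while MT-ND4 was lower by 0.61 and MT-CYB by 0.51. Only the MT-ATP8 call held in every fit with 1 library left out (4.86 to 5.44), and it stood at 5.22 without both libraries that stood apart. Without wild-type replicate 1, MT-CO1 stood at 0.34 and MT-ND3 at 0.47 and both lost the call. In that fit MT-ATP6 (-0.70), MT-ND1 (-0.56) and MT-ND2 (-0.78) gained one, all lower. Without wild-type replicate 2 the calls of MT-CYB (-0.44), MT-ND3 (0.52), MT-ND4 (-0.53) and MT-RNR1 (0.38) were lost, leaving 2 genes, and without replicate 3 those of MT-CYB (-0.27), MT-ND3 (0.59), MT-ND4 (-0.39) and MT-RNR1 (0.42), while MT-ND6 gained one (0.77, adjusted p = 0.0191), leaving 3. Without PERK KO replicate 1 the call of MT-CYB (-0.48) was lost, and without PERK KO replicate 2 those of MT-CYB (-0.47), MT-CO1 (0.26), MT-ND3 (0.16) and MT-RNR1 (0.32). MT-ND6 gained a call without PERK KO replicate 1 (0.73) or 3 (0.63), and MT-ATP6 (-0.57) and MT-ND4L (0.48) without replicate 2. MT-ATP6, MT-ND2 or MT-ND6 also gained one without some wild-type libraries of days 2, 3, 5 or 10. Without both libraries that stood apart the count was 4, 2 higher and 2 lower (all genes: 13.2% higher and 12.3% lower). In a model of the 6 libraries of that day alone it was 1, and the share over all genes there is not given here. With the effective length of each gene as an offset MT-ND3 stood at 0.21 and was not called. With library totals and no scaling factor the split was 2 higher and 4 lower, MT-ND3 (0.34) and MT-RNR1 (0.36) not called and MT-ND2 (-0.60) and MT-ATP6 (-0.61) called. Over all genes the same scaling turned 2468 higher and 1709 lower into 1717 and 2521.

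MT-ATP8 had 45, 85 and 103 counts in the wild-type libraries of day 0, replicates 1 to 3. The PERK KO libraries of that day had 2886, 1813 and 3597 counts, and the 30 libraries of later days 424 to 2477. By library, MT-ATP8 was counted at 3.04, 5.62 and 7.32 on day 0, 95.8, 85.5 and 70.1 on day 1, 71.8, 76.1 and 88.1 on day 2, 64.5, 68.3 and 67.9 on day 3, 63.2, 59.6 and 53.6 on day 5 and 54.8, 56.2 and 73.1 on day 10 in wild type, in CPM. For PERK KO the values were 182, 130 and 211 on day 0, 69.0, 58.4 and 70.6 on day 1, 79.5, 65.1 and 59.2 on day 2, 65.1, 76.2 and 74.7 on day 3, 60.9, 79.9 and 73.5 on day 5 and 30.0, 24.2 and 26.4 on day 10, in CPM. Both genotypes of day 0 thus stood outside the rest, wild type below and PERK KO above all libraries of later days. In wild type MT-ATP8 was higher at every later day than at day 0, by log2 3.997, 3.94, 3.69, 3.58 and 3.69 at days 1, 2, 3, 5 and 10. In PERK KO it was lower, by -1.53, -1.46, -1.36, -1.45 and -2.95, each past the edgeR test.

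Its partner on the same mRNA, MT-ATP6, stood at log2 -0.46 between genotypes at day 0, uncalled (adjusted p = 0.0596, edgeR). It was called lower (-0.48 to -0.61) by DESeq2, with the effective length offset, with either other filter and with library totals. The call was also made without both libraries that stood apart. It was not made with RLE scaling, scaling over other genes, a replicate block or only the compared libraries. Per 1000 counts of MT-ATP6, MT-ATP8 had 0.810, 0.884 and 0.995 counts in wild type at day 0 and 49.3, 35.2 and 51.4 in PERK KO, while the libraries of later days had 17.9 to 35.8. The log2 ratio differed between genotypes by 5.65 at day 0 (exact permutation p = 0.1, the smallest possible, adjusted over 6 days 0.2) and by -0.19, -0.09, -0.19, 0.14 and 0.18 at days 1, 2, 3, 5 and 10. The groups did not overlap at days 3 and 10 either. Relative to the other 12 protein genes the day 0 difference was 5.19.

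MT-ATP8, at 207 nt, is shorter than the mean fragment of every library. Its effective length was 1.78, 0 and 1.39 nt in the wild-type libraries of day 0, 2.81, 3.12 and 3.11 nt in PERK KO and 2.85 to 4.27 nt in all later ones. The mean fragment was 299, 320 and 313 nt in the wild-type libraries of day 0, 299, 293 and 289 nt in PERK KO, and 267 to 287 nt later. Wild-type replicate 2 holds 85 counts at an effective length of 0 and its deposited TPM (a share of transcripts, corrected for effective length) is listed at 0. The deposited TPM ratio, over the other libraries only, differed by log2 4.75 at day 0. The part of fragment size in the MT-ATP8 difference was not tested.

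**Figure D4:**
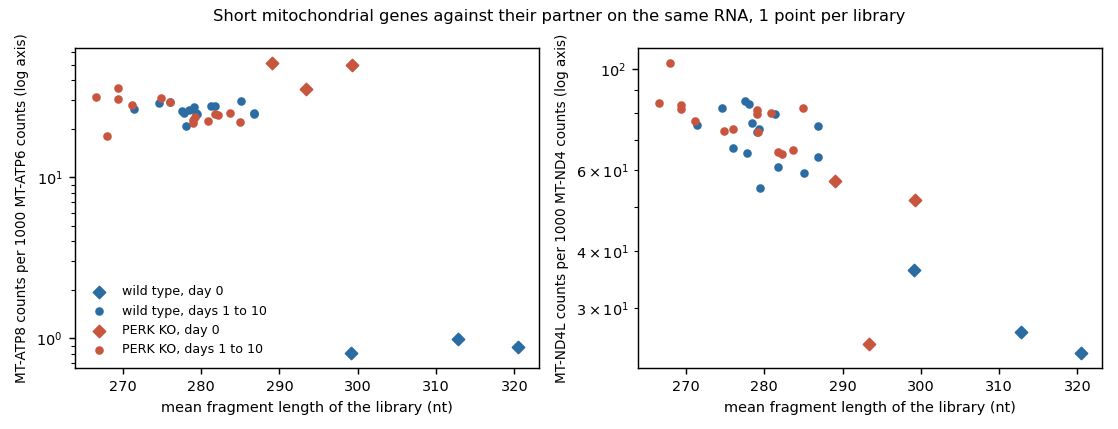
MT-ATP8 counts per 1000 MT-ATP6 counts (left) and MT-ND4L counts per 1000 MT-ND4 counts (right), both on log axes, against the mean fragment length of the library; each point is 1 of 36 libraries and diamonds mark day 0. The wild-type diamonds lie at 0.810 to 0.995 on the left, apart from all others.

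MT-ND4L, the second shortest protein gene at 297 nt, did not differ between genotypes at day 0 past the test with all libraries fitted. Per 1000 counts of MT-ND4 it had 36.3, 23.9 and 26.5 counts in wild type and 51.6, 25.0 and 56.8 in PERK KO at day 0, against 54.9 to 103 later. The genotypes overlapped at day 0 (log2 ratio difference 0.56, exact permutation p = 0.3, adjusted 0.45), and the gene itself stood at log2 0.13. The low PERK KO value belongs to replicate 2, the library that stood apart. Without that library MT-ND4L was called higher in PERK KO at day 0 (log2 0.48, edgeR adjusted p = 0.0224). Without both libraries that stood apart it was called as well (0.48, edgeR adjusted p = 0.0194). Over the 30 libraries of later days the log2 ratio fell with fragment length (Pearson r = -0.551, permutation p = 0.00166, adjusted over 8 relations 0.0022; Spearman rho = -0.574, p = 0.00109; r = -0.421 without the 2 libraries of most extreme length). For MT-ATP8 and MT-ATP6 over the same libraries r was -0.302 (permutation p = 0.105), rho -0.392 (p = 0.0326), and r without the extreme pair -0.529. The other relations of the 8 include day 0. Over the 18 PERK KO libraries the MT-ATP8 relation had the opposite sign (r = 0.410, permutation p = 0.0926), and over the 18 wild-type ones r was -0.907, where day 0 stands apart. Libraries of a group share day and genotype, so these 30 points are not independent of the conditions, and with day 0 included they fall into separate clusters.

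Short nuclear genes at day 0 were looked at after seeing the data. Of 36 tested genes over 250 and up to 350 nt, 10 (27.8%) were higher and 2 (5.56%) lower in PERK KO (median log2 0.79). Of the 19067 over 600 nt, 12.3% were higher and 8.82% lower (median 0.02). Without both libraries that stood apart the short genes were 8 (21.6%) higher and 6 (16.2%) lower of 37 (median 0.02). In that fit 13.3% of those over 600 nt were higher and 12.3% lower (median 0.00). For wild-type day 1 against day 0, where MT-ATP8 rose, 19.4% of the short genes (median log2 0.38) and 21.1% of those over 600 nt (-0.0003) were higher. For PERK KO against wild type at day 1 the shares were 2.78% (median -0.06) and 8.31% (0). Only 3 nuclear genes up to 250 nt, the length class of MT-ATP8, were tested. With all libraries fitted, 1 of them was higher in PERK KO at day 0 (median 1.51). In wild type at day 1 against day 0 it was 1 (1.69), and between genotypes at day 1 it was 0 (-1.97).

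From day 1 to day 5 the genotypes differed in few of the protein genes. At day 1 none of the 15 passed the edgeR test (all genes: 15.8% called, 8.11% higher and 7.72% lower); 1 had an unadjusted p under 0.05, and DESeq2 called 0. A model of the 6 libraries of that day alone called 7, all lower. The share of all genes called in that model is not given here, so the 7 cannot be set against it. With all libraries fitted, the lowest adjusted p was 0.139 (edgeR), and the log2 fold changes ran from -0.39 (MT-ATP8) to 0.17 (MT-RNR1). At day 2 both rRNA genes were higher and no protein gene was called (42.6% of all genes, 20.9% higher and 21.7% lower). At day 3, 4 were higher, MT-CO2 and MT-CO3 of complex IV at 0.37 each and both rRNA genes (45.1% of all genes called, 21.9% higher and 23.2% lower). MT-CO3 lost its call without wild-type replicate 1 (0.30), PERK KO replicate 2 (0.34) or replicate 3 (0.34) of that day, each leaving 2 of the 4 genes, and MT-CO2 lost it in 24 of the 36 fits with 1 library left out (0.28 to 0.44 over all of them).

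At day 5 both rRNA genes were higher and MT-CO1 (-0.52), MT-ND3 (-0.48) and MT-ND1 (-0.47) lower, 5 of 15 in all (59.0% of all genes called, 28.6% higher and 30.5% lower). Without wild-type replicate 1 of day 5, MT-CO1 stood at -0.39, MT-ND3 at -0.36 and MT-ND1 at -0.31, and these 3 calls were lost. Without PERK KO replicate 1 (MT-ND3 -0.43, MT-ND1 -0.45) or replicate 2 (-0.49 and -0.46) both complex I calls were lost, and without replicate 3 those of MT-ND1 (-0.50) and MT-RNR1 (0.41). MT-RNR1 also lost its call without wild-type replicate 2 (0.45) or 3 (0.32). With library totals and no scaling factor MT-ND1 was not called (-0.31). Models of the 6 libraries of a single day called 2 genes at day 3 and 9 at day 5. The shares of all genes called in those models are not given here.

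**Figure D5:**
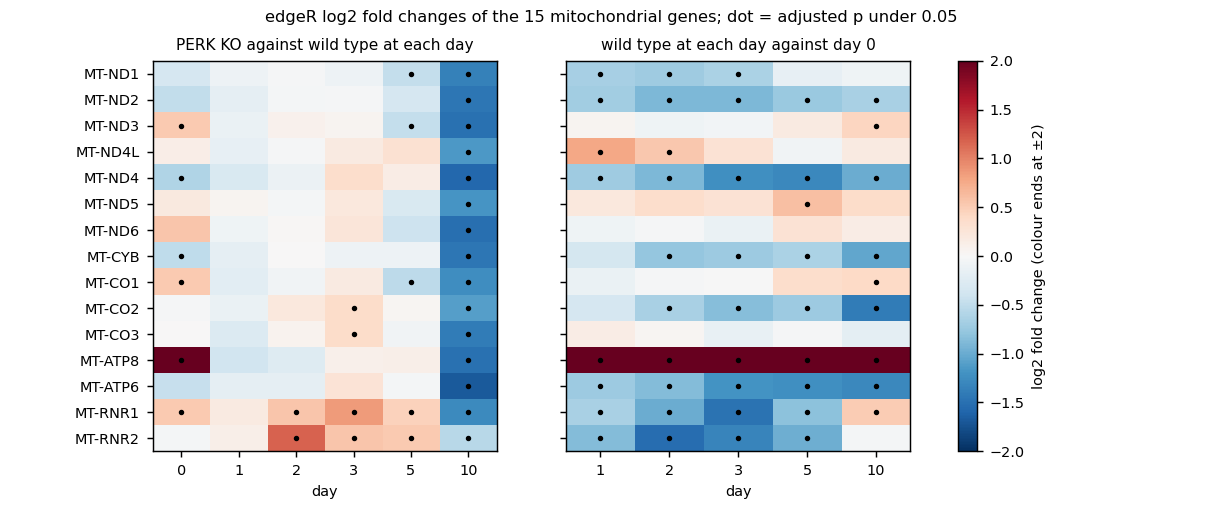
Log2 fold changes of the 15 genes between genotypes by day (left, PERK KO over wild type) and over time in wild type (right, relative to day 0); red is higher, blue lower, and a dot marks an adjusted p under 0.05 (edgeR). The day 10 column on the left is blue and dotted in all 15 rows, and the rRNA rows on the left are red at days 2, 3 and 5.

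The rRNA genes took their own course. MT-RNR2, the 16S rRNA of the large mitochondrial ribosomal subunit, was higher in PERK KO by 1.19 ± 0.134 at day 2 (edgeR adjusted p = 1.41e-08), 0.55 ± 0.132 at day 3 and 0.53 ± 0.132 at day 5, then lower by 0.56 ± 0.132 at day 10, on the log2 scale. In wild type the level of MT-RNR2 was 8892, 8470 and 9054 on day 0, 5259, 4555 and 4439 on day 1, 3308, 3421 and 2261 on day 2, 4135, 3439 and 2839 on day 3, 4591, 3876 and 3923 on day 5 and 8529, 6836 and 7745 on day 10, in CPM for replicates 1, 2 and 3. In PERK KO the level was 9848, 5343 and 8654 on day 0, 5447, 4630 and 5832 on day 1, 7154, 6509 and 7049 on day 2, 5202, 5175 and 4846 on day 3, 6818, 6143 and 7075 on day 5 and 6394, 6282 and 6529 on day 10, in CPM. The genotypes did not overlap at days 2, 3, 5 and 10. MT-RNR1, the 12S rRNA of the small subunit, was higher by 0.56, 0.86 and 0.47 at days 2, 3 and 5 and lower by 1.27 at day 10. It averaged 1544 ± 55.4 CPM in wild type and 785 ± 37.8 CPM in PERK KO at day 10.

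The rRNA genes made up more of the mitochondrial counts in PERK KO at day 10. It was 24.0%, 25.0% and 25.3% of them there and 19.6%, 16.7% and 15.7% in wild type (exact permutation p = 0.1, the smallest possible, adjusted 0.15). At day 2 the means were 14.5% ± 0.558 in PERK KO and 7.38% ± 1.64 in wild type, and at day 5 14.8% ± 0.890 and 9.13% ± 0.195, again without overlap (exact permutation p = 0.1 at both). At day 3 the groups overlapped (10.5% ± 0.577 and 8.41% ± 1.77). These are mRNA libraries, so the values are what such libraries retained of each rRNA, and an rRNA level set against an mRNA level is not a ratio of molecules.

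Within wild type, some mitochondrial genes were lower after day 0 and others were not. Against day 0 the called genes, higher and lower, were 2 and 6 at day 1, 2 and 8 at day 2, 1 and 8 at day 3, 2 and 7 at day 5 and 4 and 5 at day 10 of the 15 (all genes called: 44.6%, 50.5%, 56.8%, 61.9% and 69.2%, of which 20.9%, 25.4%, 29.3%, 31.4% and 34.9% were higher and 23.7%, 25.1%, 27.5%, 30.5% and 34.3% lower). These contrasts share the day 0 libraries. MT-ATP6 fell at all 5 days (log2 -0.73, -0.86, -1.20, -1.23 and -1.29), as did MT-ND4 (-0.72, -0.90, -1.22, -1.29 and -0.99), by the edgeR test. MT-CO2 stood at -0.34 at day 1, uncalled, and fell from day 2 on (-0.65, -0.86, -0.72 and -1.40), and MT-CYB likewise (-0.77, -0.72, -0.63 and -1.04).

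MT-CO3 and MT-ND6 were called at no day (-0.19 to 0.14 and -0.13 to 0.29), although with library totals and no scaling factor MT-CO3 was lower at day 10 (-0.35). MT-CO1, MT-ND3 and MT-RNR1 were higher at day 10 by 0.39, 0.44 and 0.51, calls that rest on single libraries. MT-CO1 stood at 0.20 without wild-type day 0 replicate 1, 0.41 without day 10 replicate 2 and 0.27 without day 10 replicate 3. MT-ND3 stood at 0.38 and 0.46 without day 0 replicates 1 and 2 and 0.25 without day 10 replicate 3, and MT-RNR1 at 0.40 and 0.41 without day 0 replicates 2 and 3. All lost the call there. With the effective length as an offset MT-ND3 turned to -0.06, with only the compared libraries fitted MT-CO1 lost its call (0.38, adjusted p = 0.104, edgeR), and with library totals and no scaling factor MT-CO1 (0.23) and MT-ND3 (0.27) were not called.

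The wild-type rRNA genes dipped and came back. MT-RNR2 was lower than at day 0 by 0.87, 1.52, 1.32 and 0.97 at days 1, 2, 3 and 5 on the log2 scale and stood at -0.04 at day 10. MT-RNR1 was lower by 0.65, 0.99, 1.47 and 0.83 at the same days, the first not called without wild-type day 0 replicate 1 (-0.37). Both rises from day 5 to day 10 are read from these values and were not tested directly.

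In PERK KO no mitochondrial gene was called higher than at day 0 at any later day. The highest log2 fold changes, uncalled, were 0.476, 0.3845, 0.3413 and 0.1057 at days 1, 2, 3 and 5. Called lower were 9, 8, 6, 10 and 15 of the 15 at days 1, 2, 3, 5 and 10 (all genes called: 43.1%, 41.4%, 40.3%, 48.8% and 61.8%, of which 18%, 17.5%, 18.5%, 21.5% and 29.9% were higher and 25.1%, 23.8%, 21.8%, 27.3% and 31.9% lower). At day 10 they ranged from -2.95 (MT-ATP8) and -2.50 (MT-ATP6) to -0.55 (MT-RNR2), with MT-CO2 at -2.49, MT-CYB at -1.99 and MT-ND4 at -1.96. Without PERK KO day 0 replicate 2 the counts at days 1 and 2 were 5 each, and without a single day 2 library (replicate 1, 2 or 3) the day 2 count was 4, 5 and 4. Whether the genotype difference at day 10 differed from that at day 0 was tested in 1 model, and all 15 genes passed the edgeR interaction test, all lower (55.7% of all genes called, 26.3% higher and 29.4% lower). With library totals and no scaling factor 12 passed, without MT-CYB (-0.52), MT-ND2 (-0.55) and MT-RNR2 (-0.12), and with only the 4 compared groups fitted 13, without MT-ND2 (-0.93) and MT-RNR2 (-0.49). At days 1, 2, 3 and 5 it was passed by 2, 3, 4 and 6 of the 15, where 23.1%, 35.7%, 38.9% and 50.1% of all genes passed (10.2%, 16.2%, 18% and 23.2% higher, 12.9%, 19.5%, 20.9% and 27.0% lower).

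Among the 13 protein genes the makeup of the counts shifted along wild-type differentiation. MT-CO1 went from 27.9% of the 13 at day 0 to 31.2%, 35.4%, 37.9%, 41.8% and 44.6% at days 1, 2, 3, 5 and 10. Over the same days MT-ATP6 went from 9.48% to 4.78%, MT-CO2 from 13.2% to 6.07% and MT-ND4 from 15.3% to 9.58%. Between genotypes, 8, 3, 5, 8, 11 and 5 of the 13 shares did not overlap at days 0, 1, 2, 3, 5 and 10 (as a reference, CPM did not overlap for 29.6%, 48.1%, 57.0%, 54.9%, 72.4% and 73.1% of all genes). By complex, the ATP synthase genes took 3.895% of the 13 in PERK KO and 4.92% in wild type at day 10, without overlap, while complex I (28.4% and 30.0%), complex III (2.98% and 3.24%) and complex IV (64.7% and 61.9%) overlapped. At days 0 and 5 none of these complexes overlapped. The ATP synthase stood at 7.19% in PERK KO and 9.49% in wild type at day 0, and at 5.85% and 4.97% at day 5. Complex IV stood at 62.2% and 51.5% at day 0, and at 60.4% and 63.2% at day 5. At day 1 all overlapped, at day 2 only complex III and at day 3 only the ATP synthase. No single-gene share passed adjustment (lowest adjusted p = 0.195, exact permutation tests over 13 genes and 6 days). None could, since the smallest exact p for 3 against 3 libraries is 0.1. At day 5 MT-CO1 took 35.1% ± 0.762 in PERK KO and 41.8% ± 0.608 in wild type. The count at day 1 was 6 without PERK KO replicate 2 or 3, and that at day 10 was 8 without wild-type replicate 2 or PERK KO replicate 1.

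On the length-corrected TPM scale, MT-CO1 stood at 21070 ± 1396 in wild type at day 10, followed by MT-CO3 at 13110 ± 789, MT-ND4L at 9850 ± 524 and MT-CO2 at 8956 ± 703, the latter pair overlapping. MT-ND6 (2485 ± 566), MT-ND5 (2328 ± 444) and MT-CYB (2253 ± 338) had the lowest means and overlapped. In PERK KO MT-CO1 stood at 11130 ± 340, MT-RNR2 at 6822 ± 163, MT-CO3 at 6050 ± 315, MT-CO2 at 5077 ± 376, and MT-ND6 at 1052 ± 69.9 and MT-CYB at 1024 ± 70.6, which overlapped. MT-ATP8 (25360 ± 5558 and 9055 ± 979) rests on an effective length of a few nt and is left out of this order. Nuclear copies of mitochondrial DNA share reads with these genes: 394 such pseudogenes are in the files, 130 have counts, and together they held 0.392% to 0.733% of the mitochondrial counts of a library. MTATP6P1 was the highest, at a mean of 202 CPM (65.2 to 310), followed by MTCO1P12 at 70.6 CPM and MTND2P28 at 1.74 CPM, so values of MT-ATP6 and MT-CO1 are uncertain by what the counting assigned to these copies.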

How the data were processed

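Per the submitters' processing notes, the tools were CASAVA, FastQC, STAR and RSEM and the build GRCh38 (hg38); their versions and roles are not given there. The values are RSEM expected counts as deposited per library, with effective length and TPM columns by the authors (per the file headers); the TPM were used for shares, ratios and order, and the deposited FPKM column, also by the authors, was not used. The deposited series matrix equals the sample files. Expected counts were rounded, since 6.53% to 9.43% of values were fractional. Gene identifiers match GENCODE 29, which gave sequences and coordinates. The design text names days 0, 2 and 6, the sample labels the 6 days used here.

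Genes passing filterByExpr (19772) were scaled by TMM. The model was that of edgeR 4.0.16, run under R 4.3.3 beside limma 3.58.1, with 12 groups of 3 and no block (24 residual degrees of freedom, biological coefficient of variation 18.7%), with the quasi-likelihood F test and Benjamini-Hochberg adjustment over all genes per contrast, called at an adjusted p under 0.05. The approximate SE was taken from each F value and its log2 fold change. Single values were compared by two-sided exact permutation, correlations by 100000 permutations. The mean fragment is the median of length minus effective length plus 1 over genes longer than 5000 nt. Totals of 14002137 to 25860481 counts give MT-ATP8 45 to 3597 counts and the other 14 genes at least 1400. The script was tested on simulated data.

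Members and lists were chosen with earlier results of these data known. Values in every library are given for MT-ATP8 and MT-ATP6 and for the member of each complex and of the rRNAs with the smallest p for PERK KO against wild type or wild type against day 0, and up to 3 genes are named per nuclear list by smallest p; others named were chosen after their values were seen. Alternatives were RLE scaling, scaling over other genes, library totals, other filters, DESeq2 1.42.0, the compared libraries only, a replicate block, an effective length offset, and leaving out libraries. Python 3.11.15 with pandas 2.3.3 and scipy 1.17.1 made the tables.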

Additional observations from a re-analysis of the deposited data

Results flagged for a closer look

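The genotype difference of a gene at a later day was set against its difference at day 0 in 1 model, and 30 such differences passed the edgeR interaction test (adjusted p under 0.05, log2 of the change in the genotype difference). They all share the day 0 libraries. At day 1 they were MT-CO1 -0.74, MT-ATP8 -5.53. MT-CO1 lost the call there without wild-type day 0 replicate 1 (-0.55), wild-type day 1 replicate 1 (-0.72) or PERK KO day 0 replicate 2 (-0.47). The 2 calls became 4 without wild-type or PERK KO day 0 replicate 1, and 1 without wild-type day 1 replicate 1. At day 2 they were MT-CO1 -0.61, MT-RNR2 1.23, MT-ATP8 -5.40. MT-CO1 lost the call in 28 of the 36 fits with 1 library left out (-0.75 to -0.31 over all), and the 3 calls became 5 without wild-type day 0 replicate 1.

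At day 3 they were MT-ND4 0.96, MT-ATP6 0.74, MT-RNR2 0.59, MT-ATP8 -5.05. MT-ATP6 lost the call without wild-type day 0 replicate 2 (0.67) or 3 (0.53), wild-type day 3 replicate 1 (0.62) or PERK KO day 0 replicate 1 (0.65), and the 4 calls became 8 without wild-type day 0 replicate 1. At day 5 they were MT-ND6 -0.96, MT-CO1 -1.05, MT-ND3 -1, MT-ND4 0.75, MT-RNR2 0.57, MT-ATP8 -5.03. MT-ND4 lost the call without wild-type day 0 replicate 3 (0.53).

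At day 10 they were MT-ND6 -2.05, MT-CO2 -1.09, MT-CYB -0.94, MT-ND2 -0.96, MT-ND5 -1.38, MT-CO1 -1.77, MT-ND3 -2.02, MT-ND4 -0.97, MT-ND1 -1, MT-ATP6 -1.21, MT-CO3 -1.41, MT-RNR2 -0.51, MT-RNR1 -1.79, MT-ND4L -1.29, MT-ATP8 -6.64. MT-RNR2 lost the call without wild-type day 10 replicate 3 (-0.43) or PERK KO day 0 replicate 1 (-0.40). It also lost it without a low-count filter (-0.49), with a stricter filter (-0.41), with the effective length offset (-0.43), with only the compared libraries (-0.49) and with library totals (-0.12). MT-ND2 lost it with only the compared libraries (-0.93) and with library totals (-0.55), and MT-CYB with library totals (-0.52). The values of MT-ATP8 at every day carry its low wild-type counts at day 0.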

How the results depend on the processing

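Of the counts, shares and makeup results, 1066 alternative values stayed close to the reported ones and 50 moved. Single-gene results were followed only for genes called in the first place and for MT-ATP8. Of these values 7008 kept direction and call, 303 lost the call, 1 gained it and 2 reversed. Many came from fits that left out a library outside the comparison. Calls gained by other genes are not in this tally. Between genotypes such gains included MT-ATP6, MT-ND2, MT-ND6 and MT-ND4L at day 0. The reversals came with the effective length offset: MT-ND4L in wild type at day 2 (-0.15) and MT-ND3 in wild type at day 10 (-0.06). When a model held the compared libraries alone, the genotype comparison called 1, 7, 2 and 9 genes at days 0, 1, 3 and 5. There were 3, 3, 3 and 5 for PERK KO at days 1, 2, 3 and 5 over its day 0, and 1 each for the interaction at days 1 and 3. Fewer libraries set the spread in these models, and their shares over all genes are not given here. Without a low-count filter the day 3 count was 2. Without the 2 libraries that stood apart the PERK KO day 1 count was 5. With library totals and no scaling factor, chosen after seeing the data, the counts were 5 for PERK KO at day 2 and 5 for the interaction at day 2.

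Leaving out 1 library gave 2 to 9 calls for PERK KO against wild type at day 0, 2 to 5 at day 3 and 2 to 6 at day 5. It gave 5 to 11 for PERK KO at day 1, 4 to 9 at day 2, and 1 to 4, 2 to 5 and 3 to 8 for the interaction at days 1, 2 and 3. Makeup counts were 3 to 6 at day 1 and 5 to 8 at day 10. As a share of the deposited TPM the mitochondrial difference was 3.26, -1.3, -0.198, 1.41, 0.723 and -6.66 percentage points at days 0, 1, 2, 3, 5 and 10, and with the 13 protein genes only, which equals leaving out the rRNA genes, 0.0513 at day 2. The TPM shares include MT-ATP8, at means of 64900 TPM in PERK KO and 2742 TPM in wild type at day 0. The log2 MT-ATP8 to MT-ATP6 difference was 4.75 at day 0 and -0.097 at day 10 by deposited TPM, and 5.19, 0.375 and -0.164 at days 0, 5 and 10 against the other 12 protein genes. The causes were not tested.

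Replicate numbers were not used as pairs: same-numbered wild-type and PERK KO libraries did not all correlate above 0.1 at any day (-0.132 to 0.316). At day 3, however, pairs 1 and 3 stood at 0.316 and 0.284, against at most -0.0237 and 0.029 with other numbers. Whether numbers pair the libraries there was not tested. With the replicate block the calls for PERK KO against wild type were 7, 0, 2, 4, 5 and 15 at days 0, 1, 2, 3, 5 and 10. The shares of all genes called with that block are not given here. Counts of 45 to 103 for MT-ATP8 in wild type at day 0 limit its precision there, and genes at or below the fragment length cannot be measured well in these libraries.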
